A study of Mus musculus with 44 samples.

Results

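The genes that build and load MHC class II molecules were followed in cultured mouse macrophages through 3 stimuli and 3 times. The set was 9 genes, taken as the entries of the count table with the symbols H2-Aa, H2-Ab1, H2-Eb1, Cd74, H2-DMa, H2-DMb1, H2-DMb2, H2-Oa and Ciita, out of 46078 genes in the table. Membership came from the symbols and used no measured value. All 9 passed the filter on low counts that left 14537 genes for testing. H2-Oa passed it through its levels in the LPS and cell extract cultures, since its highest level in any control or IL-4 library was 0.621 counts per M reads (CPM) against a filter level of 1.16 CPM. A difference for H2-Oa between those groups was therefore a condition of its being tested. Its values there are given as a description, and counts of members are also given without it.

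Thioglycolate drew the macrophages into the peritoneum of C57BL/6 mice, and the cells were collected 4 days later, pooled from several animals into 1 isolate, and chosen by adherence over 24 h. Cultures in DMEM with 10% serum were then left without stimulus (control) or were given lipopolysaccharide (LPS, 100 ng/mL), interleukin 4 (IL-4, 10 ng/mL) or an extract of H9c2 cells, a rat heart cell line (10 µg/mL), for 8, 24 or 72 h. Each of the 12 groups had 4 libraries, except control at 72 h, IL-4 at 72 h and cell extract at 24 h and at 72 h, which had 3. The series' title places the study among comparisons of damage-associated molecules of cells with the M1 state of macrophages. Neither the age nor the sex of the mice is given in the sources used here. Because all cultures share 1 pooled isolate, every p-value measures the spread between cultures and not between animals. The libraries hold bulk RNA, in which fewer cells of a type and less RNA per cell cannot be told apart.

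MHC class II molecules carry peptides from endocytosed proteins to the cell surface, where CD4+ T cells read them. The H2-A molecule pairs an alpha chain (H2-Aa) with a beta chain (H2-Ab1), and H2-Eb1 encodes the beta chain of H2-E, whose alpha chain is not made in mice of the H-2b haplotype such as C57BL/6. Cd74, the invariant chain, holds the groove of new molecules and steers them to endosomes. There H2-DM, made of H2-DMa with H2-DMb1 or H2-DMb2, exchanges the remnant of the invariant chain for peptide, and H2-O, made of H2-Oa and H2-Ob, restrains H2-DM. Ciita is the coactivator that switches these genes on. It binds no DNA itself and works through RFX, CREB and NF-Y factors that sit on the X and Y boxes of their promoters, and in macrophages it is known for its response to interferon gamma.

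Of the 9 genes, 7 lie within 224.3 kb of chromosome 17 (34092340 to 34316674, GRCm38, GENCODE M21). Ciita lies on chromosome 16 (10480059 to 10528418, plus strand). The sequences below are shown because the X and Y boxes are the sites through which Ciita acts. They come from RefSeq promoter windows of build GRCm38.p6, searched on both strands over the 250 bases ahead of the transcript start in RefSeq, and motifs were chosen with earlier results of these data known. The X core was searched as the letters in capitals ahead of the Y box in the first 3 segments, with any base at the 2 positions where these differ, and the Y box as TGATTGG, which overlaps the CCAAT motif on the other strand. Of 32851 windows, 39 (0.119%) held the X core, 2375 (7.23%) the Y box, 11120 (33.85%) CCAAT, and 9 (0.0274%) both the X core and the Y box. The windows with both belonged to H2-DMb1, H2-DMb2, H2-Eb1, H2-Ob, Nubp2, Spsb3 and Gm38969. Because the X core is spelled by the letters of H2-Eb1, H2-DMb2 and H2-Ob, the matches of these 3 genes follow from its wording. These shares are no test of the pattern. Each segment below has 75 bases, ends at the Y box, and has the X core and Y box in capitals.
H2-Eb1, chr17:34305738-34305812, plus strand: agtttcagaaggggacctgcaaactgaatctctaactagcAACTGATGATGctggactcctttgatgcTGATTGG
H2-DMb2, chr17:34145089-34145163, plus strand: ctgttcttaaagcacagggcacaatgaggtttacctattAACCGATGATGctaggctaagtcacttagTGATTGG
H2-Ob, chr17:34238778-34238852, plus strand: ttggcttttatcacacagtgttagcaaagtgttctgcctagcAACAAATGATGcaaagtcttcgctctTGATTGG
H2-Aa, chr17:34287867-34287941, minus strand: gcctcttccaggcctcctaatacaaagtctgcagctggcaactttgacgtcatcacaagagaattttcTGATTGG
H2-Oa, chr17:34092266-34092340, plus strand: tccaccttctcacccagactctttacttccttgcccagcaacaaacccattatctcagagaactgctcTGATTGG

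The X core and the Y box were 17 bases apart in H2-Eb1, 18 in H2-DMb2 and in H2-DMb1, and 15 in H2-Ob. GENCODE M21 has transcripts that start earlier than RefSeq's for 4 of these genes. Hence 119 bases of the H2-DMb1 window, with both of its boxes, are annotated as UTR, as are 39 bases for H2-Oa, 13 for H2-DMb2 and 2 for H2-Ob. H2-DMa also starts earlier in GENCODE M21, at 34119541, ahead of both of its windows (from 34122582 and from 34125268). The earliest GENCODE M21 start of H2-DMb2, at 34143307, likewise lies ahead of its window (from 34144999). The bases before these 2 starts were not searched. H2-Aa and H2-Oa held the Y box and no match to these letters of the X core, whose variants were not searched. The 2 windows of H2-DMa held neither. The source of the windows had none for H2-Ab1 or Ciita, and Cd74 was left out of the description gene by gene. The boxes of H2-Ab1, Ciita and Cd74 are therefore not described. A match describes the letters only. Whether the boxes bear on the levels was not tested. In the 9 comparisons with control, H2-DMb1 was called higher in 7 and lower in 1, and H2-Eb1 higher in 3 and lower in 1. H2-DMb2, with 625 counts in all, was not called in any. H2-Aa was called higher in 3 and lower in 1, and H2-DMa higher in 5 and lower in 1. The share of all genes called in these comparisons ran from 8.33% to 45.4%.

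The libraries differed in depth, from 0.908 to 26.6 M gene counts, with IL-4 at 24 h replicate 1 the shallowest. In 7 libraries, each a replicate 3, the ribosomal RNA repeat Rn18s-rs5 took the most counts (3.75% to 7.73% of the library, against at most 2.06% in the others). Control replicate 1 stood apart at 8 h, with 101 CPM of Il6 and 87.1 CPM of Il1b. Macrophage markers summed to 7901 to 30720.1 CPM per library over 8 genes (Adgre1, Cd68, Csf1r, Lyz2 and others), and none of the 8 was at 0 in any group. The sum was 8169 to 9191 CPM with LPS at 24 h, against 8925 to 14459 CPM in control at 24 h. Of the 8 markers, however, 5 were called higher and 2 lower there, where 37.9% of all genes were called. Cd74 lies on chromosome 18 (60803848 to 60812652, plus strand, GRCm38). How the counting treated strand is not given in the sources used here. Exons of H2-Oa overlap those of BC051537 on the other strand over 22.8% of their bases, those of H2-DMa overlap Brd2 over 10.4% and those of Ciita overlap Dexi over 3.5%. H2-DMb1 and H2-DMb2 share near-identical stretches, with 28.6% and 26.2% of their 47-base windows found in the other, so reads could be split or lost between them.

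Levels between genes were compared per kb, once over the union of annotated exons and, chosen after seeing the data, over the longest coding transcript. In control at 8 h the invariant chain Cd74 stood at 288 CPM per kb of exon union and 343 per kb of transcript. The chains followed in an order that the length decided, with 105 and 222 CPM per kb for H2-Ab1, 89.6 and 302 for H2-Aa and 73.6 and 85.7 for H2-Eb1. The peptide-loading gene H2-DMb1 stood at 22.5 CPM per kb of exon union and H2-DMa at 5.96, while H2-DMb2 (0.945), Ciita (0.512) and H2-Oa (0.0601) were lowest. Over transcripts these 5 kept this order (26.9, 10.2, 1.11, 0.813 and 0.0778). With LPS at 72 h Cd74 led over the exon union (652 CPM per kb, against 397 for H2-Ab1 and 219.7 for H2-Aa) and H2-Ab1 over transcripts (841, against 777 for Cd74 and 739.9 for H2-Aa). H2-Eb1 stood at 199 and 231 CPM per kb there. Across groups, LPS at 72 h had the highest mean of 7 members. H2-DMb1 and Ciita were highest with LPS at 24 h, where their ranges overlapped those of LPS at 72 h. The highest group stood apart from the next for H2-Aa, H2-Eb1 and H2-Oa, and overlapped it for H2-Ab1, H2-DMa, H2-DMb2 and Cd74. IL-4 at 72 h had the lowest mean of 7 members, H2-Oa being lowest with IL-4 at 24 h and Cd74 in control at 72 h.

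**Figure D1:**
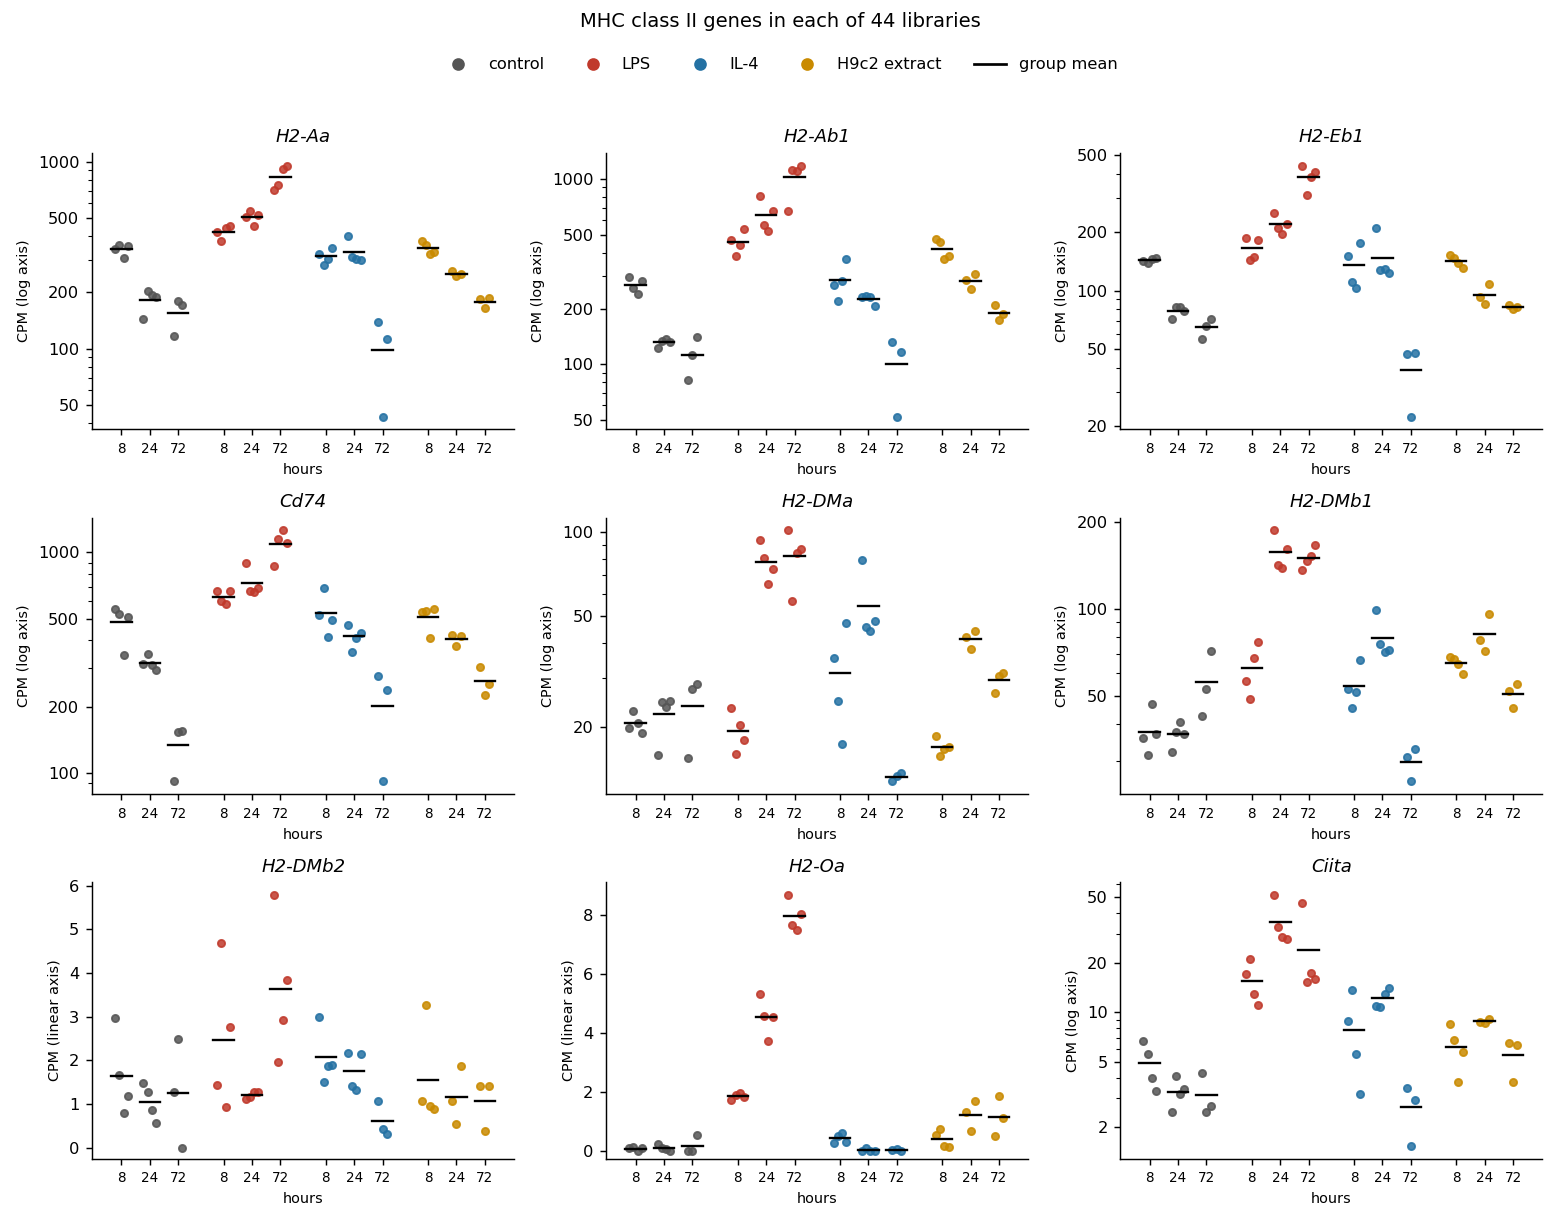
Level of each of the 9 genes in each library, in CPM (vertical axis, log scale except for H2-DMb2 and H2-Oa, which have libraries at 0), against hours of culture (horizontal axis) for control, LPS, IL-4 and H9c2 cell extract; points are libraries and bars are group means. H2-Ab1 fell from a mean of 269 to 112 CPM in control between 8 and 72 h and stood at 1019 CPM with LPS at 72 h.

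Without stimulus, the genes of the class II chains and of the invariant chain fell with time in culture, and those of H2-DM did not. Control libraries at 8, 24 and 72 h are each given in the order of their replicate numbers (1, 2, 3 and 4 at 8 and 24 h, and 1, 3 and 4 at 72 h). H2-Ab1 stood at 297, 257, 238 and 283 CPM at 8 h, at 122, 133, 137 and 132 CPM at 24 h, and at 82.7, 112 and 140.2 CPM at 72 h. Every library at 72 h was below every library at 8 h. H2-Aa went from 343, 358, 305 and 356 CPM at 8 h to 144, 203, 193 and 189.8 CPM at 24 h and 116, 179 and 171 CPM at 72 h. H2-Eb1 went from 142, 139, 145 and 146 CPM at 8 h to 71.4, 82.7, 82.1 and 78.3 CPM at 24 h and 56.4, 65.8 and 71.7 CPM at 72 h. Cd74 went from 556, 526, 343 and 509.9 CPM at 8 h to 311, 347, 308 and 294 CPM at 24 h and 92.0, 154 and 155 CPM at 72 h. For each of these 4 genes the libraries at 72 h lay below all those at 8 h. On the log2 scale H2-Ab1 fell by 1.27 ± 0.22 (SE, adjusted p = 7.85e-05), H2-Aa by 1.14 ± 0.21 (adjusted p = 0.00018), H2-Eb1 by 1.15 ± 0.20 (adjusted p = 7.23e-05) and Cd74 by 1.86 ± 0.24 (adjusted p = 4.23e-07).

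H2-DMa had 19.9, 22.7, 20.6 and 19.0 CPM at 8 h, 15.8, 24.6, 23.4 and 24.8 CPM at 24 h and 15.5, 27.4 and 28.4 CPM at 72 h, and these ranges overlapped without a call. H2-DMb1 stood at 35.9, 31.3, 46.8 and 37.0 CPM at 8 h, at 32.1, 37.8, 40.9 and 37.1 CPM at 24 h and at 42.8, 53.0 and 71.7 CPM at 72 h. It was higher at 72 h than at 8 h by 0.55 ± 0.17 (log2, adjusted p = 0.0237), although the groups overlapped, and the call was lost without control at 72 h replicate 4 (adjusted p = 0.216) or without control at 8 h replicate 1 (0.0600) or 2 (0.0906), in a fit of the 2 groups alone (0.0938) and with no filter on low counts (0.122). Ciita, at 6.68, 5.56, 4.00 and 3.30 CPM at 8 h, 2.47, 4.07, 3.20 and 3.40 CPM at 24 h and 4.24, 2.49 and 2.68 CPM at 72 h, overlapped between the times and did not pass the test. Of the 9 genes, control cultures had 4 lower and 1 higher at 72 h compared with 8 h, where 13.5% of all genes tested were called, 7.16% as lower and 6.38% as higher. Mesothelial and fibroblast markers (8 genes, Msln, Krt19, Col1a1 and others) summed to 116 to 137 CPM in control at 8 h and to 452 to 1044 CPM in control at 72 h, and their part in the fall was not tested.

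With LPS the coactivator Ciita was higher from 8 h on, and the classical chains and Cd74 reached their largest differences from control at 72 h. At 8 h 4 of 9 genes were higher than in control (H2-Ab1, H2-DMb1, H2-Oa and Ciita), where 45.4% of all genes tested were called, 21.3% as higher. At 24 h 8 of 9 were higher (background 37.9% called, 18.6% higher and 19.3% lower), and at 72 h 8 of 9 (31.5% called, 16.1% higher). The exception at 24 and 72 h was H2-DMb2. Without H2-Oa the counts were 3, 7 and 7 of 8 genes. The median log2 difference of these 8 was 0.46, 1.64 and 2.51 at 8, 24 and 72 h, beside 0.0026, -0.07 and 0.05 over all genes tested.

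Ciita stood at 17.0, 21.1, 12.9 and 11.0 CPM with LPS at 8 h, at 51.5, 33.1, 28.8 and 28.0 CPM at 24 h, and at 46.3, 15.2, 17.4 and 16.0 CPM at 72 h. Every LPS library was above every control library at the same time. Replicate 1 at 72 h, a library of 1.10 M counts, was far above the other 3 of its group and within the range of the 24 h group. Against control Ciita was higher by 1.64 ± 0.30 at 8 h (log2, adjusted p = 1.90e-05), by 3.37 ± 0.32 at 24 h (adjusted p = 1.46e-11) and by 2.63 ± 0.42 at 72 h (adjusted p = 3.22e-06).

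H2-Ab1, the H2-A beta chain, stood at 469.8, 386, 439 and 536 CPM with LPS at 8 h, at 806, 565, 526 and 676 CPM at 24 h and at 675, 1116, 1105 and 1181 CPM at 72 h. All LPS libraries lay above the control libraries of their time, and replicate 1 at 72 h was the lowest of its group. On raw library totals, without TMM scaling, the 8 h groups overlapped, at 320 to 395 CPM with LPS and 229 to 330 CPM in control. H2-Ab1 was higher by 0.77 ± 0.19 at 8 h (log2, adjusted p = 0.00109) and by 2.29 ± 0.20 at 24 h (adjusted p = 2.11e-12). By 72 h the difference was 3.20 ± 0.24 (adjusted p = 4.09e-14).

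H2-Aa, the alpha chain of the same molecule, stood at 419.7, 376, 442 and 453 CPM with LPS at 8 h, at 509.6, 546, 452 and 518 CPM at 24 h and at 710.4, 755, 917 and 956 CPM at 72 h. At 8 h the LPS libraries were all above the control libraries, but the difference of 0.31 ± 0.18 did not pass the test (log2, adjusted p = 0.174; 0.0228 in a fit of the 2 groups alone). On raw totals the groups overlapped there, at 316 to 334 CPM with LPS and 293 to 395 CPM in control. H2-Aa was higher by 1.47 ± 0.19 at 24 h (adjusted p = 1.96e-08) and by 2.43 ± 0.22 at 72 h (adjusted p = 5.57e-12). H2-Eb1 stood at 186, 144, 149 and 182 CPM at 8 h, at 251, 211, 195 and 220.4 CPM at 24 h and at 439.5, 309.9, 385 and 409 CPM at 72 h. It overlapped control at 8 h and was apart from it later, by 1.48 ± 0.18 at 24 h (adjusted p = 4.27e-09) and 2.58 ± 0.21 at 72 h (adjusted p = 3.52e-13). Cd74 stood at 666, 602, 584 and 667 CPM at 8 h, at 897, 670.1, 660.1 and 693 CPM at 24 h and at 871, 1146, 1260.4 and 1103 CPM at 72 h. As for H2-Aa, all LPS libraries were above control at 8 h without a call (0.38 ± 0.20, adjusted p = 0.133; 0.0390 in a fit of the 2 groups alone). On raw totals they overlapped control, at 425 to 513 CPM with LPS and 331 to 617 CPM in control. Cd74 was higher by 1.21 ± 0.21 at 24 h (adjusted p = 6.79e-06) and by 3.04 ± 0.25 at 72 h (adjusted p = 6.11e-13).

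Among the H2-DM genes H2-DMb1 passed the test from 8 h and H2-DMa from 24 h. H2-DMb1 stood at 56.6, 49.1, 67.8 and 76.9 CPM with LPS at 8 h, at 187, 142, 139 and 161 CPM at 24 h and at 136, 146, 152 and 166 CPM at 72 h. H2-DMa stood at 23.3, 16.0, 20.2 and 17.9 CPM at 8 h, at 93.1, 80.8, 65.1 and 73.6 CPM at 24 h and at 101, 56.4, 84.0 and 86.9 CPM at 72 h. At 8 h H2-DMb1 was above all controls (0.74 ± 0.15, adjusted p = 8.44e-05), while H2-DMa overlapped them (-0.10 ± 0.20, adjusted p = 0.729). On raw totals H2-DMb1 also overlapped control at 8 h, at 41.3 to 56.6 CPM with LPS and 34.5 to 45.1 CPM in control. At 24 h both genes were apart from control, by 2.08 ± 0.15 for H2-DMb1 (adjusted p = 1.42e-14) and 1.80 ± 0.20 for H2-DMa (adjusted p = 6.49e-10). At 72 h the differences were 1.45 ± 0.17 for H2-DMb1 (adjusted p = 6.05e-09) and 1.81 ± 0.24 for H2-DMa (adjusted p = 5.29e-08). H2-DMb2 stayed between 0.929 and 5.78 CPM in the 12 LPS libraries and between 0 and 2.96 CPM in the 11 control libraries, and no LPS comparison with control passed the test (smallest adjusted p = 0.140, at 72 h).

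H2-Oa, a chain of the H2-DM inhibitor, was nearly absent from control, with 6, 3 and 1 counts over the libraries of the 8, 24 and 72 h groups. With LPS it stood at 1.72, 1.90, 1.97 and 1.84 CPM at 8 h, at 5.31, 4.57, 3.74 and 4.55 CPM at 24 h and at 8.68, 7.66, 7.51 and 8.03 CPM at 72 h, from 44, 171 and 201 counts. The control libraries did not exceed 0.535 CPM, a level made by 1 count in control at 72 h replicate 4. The ratio of counts per scaled library size between LPS and control was 17.5 at 8 h (95% exact interval 7.42 to 50.2), 51.7 at 24 h (17.4 to 253) and 73.2 at 72 h (13.0 to 2907). Counting error is all that these intervals cover, because reads lacking molecular identifiers need not be independent molecules. The 72 h ratio rests on the single control count of replicate 4, without which control was at 0. The fitted log2 difference of 6.01 became 5.10 without control at 72 h replicate 1. H2-Ob, the partner chain, had means of 0.724 CPM with LPS and 0.474 in control at 8 h, where the groups overlapped, 1.75 and 0.407 at 24 h, and 2.40 and 0.212 at 72 h. B cells are known for H2-O. Of 7 tested B cell markers, 4 were higher and 1 (Cd22) lower with LPS at 8 h, 1 (Cd22) was lower at 24 h, and 3 (Ighm, Cd22 and Cd79a) were lower at 72 h. The 8 B cell markers summed to 59.0 to 75.9 CPM in control at 72 h and to 26.7 to 39.5 CPM with LPS at 72 h, where Blk was at 0. The part of B cells in the H2-Oa level was not tested.

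**Figure D2:**
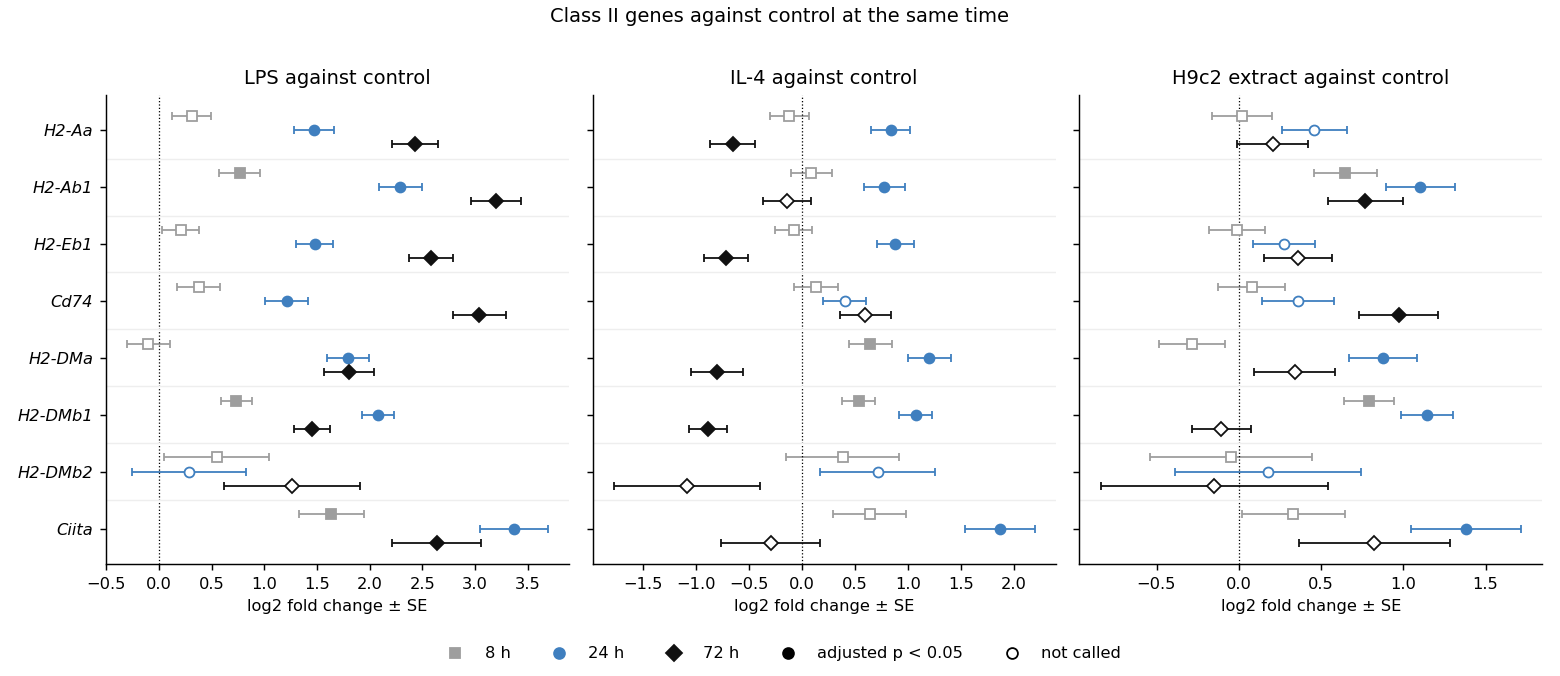
Log2 fold change against control at the same time (horizontal axis, with the standard error) for 8 of the genes (vertical axis) with LPS, IL-4 and H9c2 cell extract; squares, circles and diamonds are 8, 24 and 72 h, and filled symbols passed the test (adjusted p under 0.05). H2-Oa is left out because its control groups had 6 counts or fewer, and the horizontal scales of the panels differ.

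The LPS difference at 72 h was larger than that at 8 h for 6 of 9 genes (H2-Aa, H2-Ab1, H2-Eb1, H2-DMa, H2-DMb1 and Cd74), where 30.0% of all genes differed in either direction and 15.7% upward. The change of the log2 difference was 2.66 ± 0.31 for Cd74 (adjusted p = 1.07e-08), 2.43 ± 0.29 for H2-Ab1 (adjusted p = 2.08e-08), 2.38 ± 0.26 for H2-Eb1 (adjusted p = 3.31e-09) and 2.12 ± 0.28 for H2-Aa (adjusted p = 1.08e-07). Both sides of the comparison moved, since these 4 genes fell in control and rose within the LPS cultures. Between 8 and 72 h of LPS, 7 of 9 genes rose (background 43.5% called, 21.6% higher), among them H2-DMa by 2.07 ± 0.21 (adjusted p = 7.61e-11), H2-Eb1 by 1.22 ± 0.18 (adjusted p = 2.44e-07), H2-Ab1 by 1.16 ± 0.20 (adjusted p = 5.15e-06), H2-Aa by 0.98 ± 0.19 (adjusted p = 2.93e-05) and Cd74 by 0.80 ± 0.21 (adjusted p = 0.00149). Ciita did not pass this test (0.41 ± 0.30, adjusted p = 0.287). Without H2-Oa, 6 of 8 genes rose. H2-DMb1's larger LPS difference at 72 h (0.71 ± 0.23, adjusted p = 0.0137) lost its call without control at 72 h replicate 1 (adjusted p = 0.0855), without control at 8 h replicate 3 (0.0546), in a fit limited to these groups (0.0926) or without the 7 libraries rich in Rn18s-rs5 (0.104).

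IL-4 cultures had more of most class II transcripts than control at 24 h and less of 4 of them at 72 h. At 24 h 6 of 9 genes were higher (H2-Aa, H2-Ab1, H2-Eb1, H2-DMa, H2-DMb1 and Ciita), where 9.50% of all genes were called, 4.74% as higher and 4.76% as lower. At 72 h 4 were lower (H2-Aa, H2-Eb1, H2-DMa and H2-DMb1), where 23.7% were called, 10.5% as lower. The 8 B cell markers summed to 31.8 to 34.8 CPM with IL-4 at 72 h, against 59.0 to 75.9 CPM in control, with 2 of 7 tested lower (Ighm and Cd22). Their part in the class II differences was not tested. At 8 h 2 were higher (H2-DMa and H2-DMb1), where 8.33% were called, 4.29% as higher and 4.04% as lower. The median log2 difference of the 9 genes was 0.38, 0.84 and -0.72 at 8, 24 and 72 h, beside -0.04, -0.03 and -0.0012 over all genes tested. 
Ciita stood at 8.86, 13.6, 5.59 and 3.16 CPM with IL-4 at 8 h, at 10.9, 10.7, 12.9 and 14.1 CPM at 24 h and at 3.45, 1.54 and 2.93 CPM at 72 h, the last in replicates 2, 3 and 4. The 8 h libraries spread over the control range, those of 24 h were all above control, and those of 72 h overlapped control. It was higher at 24 h by 1.87 ± 0.33 (log2, adjusted p = 7.43e-05) and did not pass the test at 8 h (0.64 ± 0.34, adjusted p = 0.317) or at 72 h (-0.30 ± 0.47, adjusted p = 0.684).

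H2-Aa stood at 323, 280.1, 303 and 345 CPM at 8 h, at 399, 310.0, 304 and 297 CPM at 24 h and at 138, 43.2 and 113 CPM at 72 h. H2-Ab1 stood at 269, 219, 283 and 369 CPM at 8 h, at 232, 233, 229 and 207 CPM at 24 h and at 133, 52.2 and 116 CPM at 72 h. H2-Eb1 stood at 151, 110.0, 103 and 175 CPM at 8 h, at 210.2, 128, 129 and 124 CPM at 24 h and at 47.1, 22.4 and 47.7 CPM at 72 h. For all 3 chains the 24 h libraries lay above control at 24 h, replicate 3 was the lowest at 72 h, and replicate 1 of the 24 h group, the shallowest library, was the highest for H2-Aa and H2-Eb1. At 24 h the log2 difference was 0.84 ± 0.19 for H2-Aa (adjusted p = 0.0018), 0.78 ± 0.20 for H2-Ab1 (adjusted p = 0.00658) and 0.88 ± 0.18 for H2-Eb1 (adjusted p = 0.000484). The control libraries had fallen by then, and the IL-4 means at 24 h (327, 225 and 148 CPM) lay beside control means at 8 h of 340.4, 269 and 143 CPM, a comparison that was not tested.

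At 72 h H2-Aa was lower than control by 0.66 ± 0.22 (log2, adjusted p = 0.023) with overlapping groups, and H2-Eb1 by 0.72 ± 0.21 (adjusted p = 0.00979) with no overlap. Both calls were lost without IL-4 at 72 h replicate 3, with adjusted p = 0.208 for H2-Aa and 0.108 for H2-Eb1, and in a fit of the 2 groups alone (0.191 and 0.0712). H2-Aa also lost its call without control at 72 h replicate 3 (adjusted p = 0.0957) or 4 (0.0818), without the 7 libraries rich in Rn18s-rs5 (0.128) and with no filter on low counts (0.0761). H2-Ab1 did not pass the test at 72 h (-0.15 ± 0.23, adjusted p = 0.679). Cd74, at 519, 688, 416 and 495 CPM at 8 h, 471, 355, 409 and 433 CPM at 24 h and 274, 91.8 and 238 CPM at 72 h, did not pass the test against control at any time. Its 24 h libraries were all above control (0.40 ± 0.21, adjusted p = 0.264). At 72 h its replicates 2 and 4 were above all controls and replicate 3 below them, and without replicate 3 Cd74 was higher than control by 0.94 (adjusted p = 0.00101), against 0.60 ± 0.24 with it (adjusted p = 0.0666; 0.0310 with no filter on low counts).

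H2-DMa and H2-DMb1 were above control at 24 h and below it at 72 h. H2-DMa stood at 35.3, 24.7, 17.4 and 47.1 CPM with IL-4 at 8 h, at 79.5, 45.6, 44.1 and 47.8 CPM at 24 h and at 12.7, 13.3 and 13.6 CPM at 72 h. H2-DMb1 stood at 52.9, 45.4, 51.6 and 66.4 CPM at 8 h, at 99.1, 75.8, 70.9 and 72.3 CPM at 24 h and at 31.0, 25.4 and 32.9 CPM at 72 h. Both overlapped control at 8 h, lay above it at 24 h and below it at 72 h, where the IL-4 libraries were close together. H2-DMa was higher by 1.20 ± 0.20 at 24 h (log2, adjusted p = 3.69e-05) and H2-DMb1 by 1.07 ± 0.15 (adjusted p = 2.42e-06). At 72 h H2-DMa was lower by 0.80 ± 0.25 (adjusted p = 0.0151) and H2-DMb1 by 0.89 ± 0.18 (adjusted p = 0.000273). The H2-DMa call at 72 h was lost without control at 72 h replicate 3 (adjusted p = 0.0905) or 4 (0.0821) and without the 7 libraries rich in Rn18s-rs5 (0.131). At 8 h H2-DMa was higher by 0.64 ± 0.21 (adjusted p = 0.042) and H2-DMb1 by 0.53 ± 0.15 (adjusted p = 0.0227). Each of these 2 calls was lost without any 1 of control replicates 1, 2 or 4 or IL-4 replicate 4, and that of H2-DMa also without control replicate 3 or IL-4 replicate 1 (adjusted p from 0.0521 to 0.361). In a fit of the 2 groups alone neither was called (adjusted p = 0.175 for H2-DMa and 0.105 for H2-DMb1), and H2-DMb1 was not called with no filter on low counts (0.160) nor H2-DMa without the libraries rich in Rn18s-rs5 (0.113).

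The IL-4 difference at 72 h was below that at 8 h for 2 of 9 genes, where 16.1% of all genes differed in either direction and 6.57% downward. These were H2-DMa (-1.45 ± 0.32, adjusted p = 0.00171) and H2-DMb1 (-1.42 ± 0.24, adjusted p = 5.49e-05). Within the IL-4 cultures all 9 genes were lower at 72 h than at 8 h (background 20.3% called, 8.74% lower), from H2-DMb1 by 0.87 ± 0.17 (adjusted p = 0.000211) to H2-Eb1 by 1.79 ± 0.20 (adjusted p = 1.56e-08) among the well-counted members. Over the same interval 5 of 7 tested B cell markers were lower, with sums of 71.4 to 83.4 CPM at 8 h and 31.8 to 34.8 CPM at 72 h. Their part was not tested. The calls of the 2 low genes depended on single libraries. H2-DMb2 (-1.79, and -2.54 without IL-4 at 72 h replicate 2) lost its call without IL-4 at 72 h replicate 3 (adjusted p = 0.0926) or 4 (0.121) or IL-4 at 8 h replicate 1 (0.140), and H2-Oa, with 2 counts at 72 h and 5 at 8 h, without IL-4 at 72 h replicate 2 (0.0545) or 4 (0.0632). H2-Oa stood at 0.286, 0.505, 0.621 and 0.316 CPM with IL-4 at 8 h, above all control libraries there, with a ratio to control of 3.36 (95% exact interval 0.811 to 13.2), and was at 0 in 3 of 4 libraries at 24 h and 1 of 3 at 72 h. H2-DMb2 lay between 0.318 and 3.00 CPM in the IL-4 libraries and did not pass the test against control (adjusted p = 0.770, 0.513 and 0.259 at 8, 24 and 72 h).

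With cell extract the H2-A beta chain passed the test at each time and the alpha chain at no time, a difference between the genes that was not itself tested. At 8 h 3 of 9 genes were higher than control (H2-Ab1, H2-DMb1 and H2-Oa), where 30.2% of all genes were called, 13.0% as higher. At 24 h 5 were higher (H2-Ab1, H2-DMa, H2-DMb1, H2-Oa and Ciita; background 22.1% called, 11.7% higher), and at 72 h 3 (H2-Ab1, H2-Oa and Cd74; 26.3% called, 14.2% higher). Without H2-Oa the counts were 2, 4 and 2 of 8 genes. H2-Ab1 was called at all 3 times. The median log2 difference of the 8 genes was 0.05, 0.67 and 0.35 at 8, 24 and 72 h, beside -0.06, -0.06 and 0.0042 over all genes tested. Macrophage markers summed to 26580.2 to 30720.1 CPM with cell extract at 72 h, against 9702 to 17627 CPM in control, with 6 of 8 higher. B cell markers summed to 39.1 to 41.4 CPM against 59.0 to 75.9 CPM, with 4 of 7 lower. Their part in the differences at 72 h was not tested.

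H2-Ab1 stood at 473, 458, 371 and 382 CPM with cell extract at 8 h, at 284, 256 and 307 CPM at 24 h and at 208, 173 and 187 CPM at 72 h, the later times in replicates 2, 3 and 4. The extract libraries were above all controls at each time, though they too fell with time. The log2 difference was 0.65 ± 0.19 at 8 h (adjusted p = 0.0086), 1.10 ± 0.21 at 24 h (adjusted p = 6.07e-05) and 0.77 ± 0.23 at 72 h (adjusted p = 0.0107). The 72 h call was lost without control at 72 h replicate 1 (adjusted p = 0.0908). H2-Aa stood at 375, 357, 321 and 328 CPM at 8 h, at 259, 244 and 251 CPM at 24 h and at 184, 165 and 186 CPM at 72 h. It overlapped control at 8 and 72 h, and at 24 h all extract libraries were above control with a difference of 0.46 ± 0.20 (adjusted p = 0.0946; 0.0071 in a fit of the 2 groups alone). The other differences of H2-Aa were 0.02 ± 0.18 at 8 h (adjusted p = 0.968) and 0.20 ± 0.21 at 72 h (adjusted p = 0.530).

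H2-Eb1 stood at 152, 147, 139 and 131 CPM at 8 h, at 92.4, 85.7 and 108 CPM at 24 h and at 84.7, 80.3 and 82.4 CPM at 72 h. Its extract libraries were above all controls at 24 and 72 h, yet the differences did not pass the test (0.27 ± 0.19, adjusted p = 0.344, and 0.36 ± 0.21, adjusted p = 0.207; the first with 0.0450 in a fit of the 2 groups alone). Cd74 stood at 539, 542, 411 and 553 CPM at 8 h, at 422, 377 and 417 CPM at 24 h and at 304, 226 and 254 CPM at 72 h. It overlapped control at 8 h and was above all controls later, with a call at 72 h (0.97 ± 0.24, adjusted p = 0.00237) and none at 24 h (0.36 ± 0.22, adjusted p = 0.280; 0.00883 in a fit of the 2 groups alone).

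Ciita stood at 8.45, 6.76, 3.78 and 5.70 CPM with cell extract at 8 h, at 8.70, 8.60 and 9.06 CPM at 24 h and at 6.47, 3.75 and 6.35 CPM at 72 h. It was apart from control at 24 h (1.38 ± 0.34, adjusted p = 0.0016) and overlapped it at 8 h (0.33 ± 0.31, adjusted p = 0.504) and 72 h (0.82 ± 0.46, adjusted p = 0.190). H2-Ab1 was thus called at 8 h at a time when Ciita was not, and the difference between the 2 genes was not tested.

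H2-DMb1 stood at 68.0, 67.3, 64.5 and 59.9 CPM with cell extract at 8 h, at 78.2, 71.6 and 96.4 CPM at 24 h and at 52.2, 45.4 and 55.0 CPM at 72 h. H2-DMa stood at 18.5, 15.7, 16.6 and 17.0 CPM at 8 h, at 41.9, 37.8 and 43.9 CPM at 24 h and at 26.5, 30.4 and 31.2 CPM at 72 h. As with LPS, H2-DMb1 was above control at 8 h (0.79 ± 0.15, adjusted p = 5.40e-05) while H2-DMa was not: its extract libraries were all below control there, without a call (-0.28 ± 0.20, adjusted p = 0.335). At 24 h both were higher, H2-DMb1 by 1.14 ± 0.16 (adjusted p = 3.00e-07) and H2-DMa by 0.88 ± 0.21 (adjusted p = 0.00116). At 72 h both overlapped control.

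H2-Oa stood at 0.537, 0.742, 0.189 and 0.127 CPM with cell extract at 8 h, at 1.31, 0.699 and 1.70 CPM at 24 h and at 0.504, 1.88 and 1.12 CPM at 72 h. The 24 h libraries were above all controls. The ratio to control was 4.34 at 8 h (95% exact interval 1.61 to 13.5, from 16 and 6 counts), 13.7 at 24 h (4.44 to 68.8, from 50 and 3) and 7.48 at 72 h (1.24 to 306, from 28 and 1). Its fitted log2 difference at 72 h was 3.00. It was 2.096 without control replicate 1. Without control replicate 4 control was at 0. The 8 h call, a description only, was lost without cell extract replicate 2 (adjusted p = 0.180) and with no filter on low counts (0.0587), and the 72 h call without control replicate 1 (0.254) or 3 (0.0989), without cell extract replicate 4 (0.0866), without the 7 libraries rich in Rn18s-rs5 (0.146), with DESeq2 (0.0701) or with no filter (0.0571). H2-DMb2 lay between 0.375 and 3.27 CPM in the extract libraries and overlapped control at each time (adjusted p = 0.974, 0.885 and 0.913).

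Between 8 and 72 h the difference of cell extract from control changed for 2 of 9 genes, where 21.9% of all genes differed, 13.1% upward and 8.75% downward. H2-DMb1 lost its difference (-0.90 ± 0.23, adjusted p = 0.00441) and Cd74 gained one (0.89 ± 0.32, adjusted p = 0.0380). The Cd74 call was lost without any 1 of 8 libraries (control at 72 h replicate 1, control at 8 h replicates 1, 2 or 4, cell extract at 72 h replicates 2 or 4, and cell extract at 8 h replicates 2 or 3; adjusted p from 0.0585 to 0.145), with DESeq2 (0.0672) and with RLE size factors (0.0875). Within the extract cultures 4 genes fell from 8 to 72 h (H2-Aa, H2-Ab1, H2-Eb1 and Cd74) and H2-DMa rose by 0.79 ± 0.22 (adjusted p = 0.00442), where 30.6% of all genes were called, 13.4% as lower and 17.2% as higher. H2-Ab1 fell by 1.15 ± 0.22 there (adjusted p = 5.37e-05), Cd74 by 0.97 ± 0.23 (adjusted p = 0.000929), H2-Aa by 0.95 ± 0.20 (adjusted p = 0.00033) and H2-Eb1 by 0.78 ± 0.19 (adjusted p = 0.00142).

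Set directly against LPS, cell extract gave lower class II levels from 24 h on. At 8 h 2 of 9 genes were lower with extract (H2-Oa and Ciita; 29.1% of all genes called, 15.1% as lower and 14.0% as higher), at 24 h 8 (16.8% called, 8.76% lower and 8.06% higher) and at 72 h 8 (22.4% called, 11.4% lower). H2-DMb2 was the gene not called at 24 and 72 h, and without H2-Oa the counts were 1, 7 and 7 of 8. At 8 h H2-Ab1 overlapped between the stimuli (-0.12 ± 0.19, adjusted p = 0.705), as did H2-DMb1 (0.05 ± 0.15, adjusted p = 0.844), while Ciita was lower by 1.31 ± 0.31 with no overlap (adjusted p = 0.000788). On raw totals Ciita overlapped there, at 3.43 to 8.69 CPM with extract and 8.14 to 17.7 CPM with LPS. By 72 h the extract libraries were below all LPS libraries for all 8 genes other than H2-Oa, as they were for 15.3% of all genes tested. Among the well-counted members called, the differences ran from -1.47 ± 0.22 for H2-DMa (adjusted p = 2.65e-06) to -2.43 ± 0.23 for H2-Ab1 (adjusted p = 1.49e-10). The extract libraries were also below for H2-Oa, a description only, at a ratio of 0.102 (95% exact interval 0.0662 to 0.152).

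LPS and IL-4 were also compared with each other. At 8 h 3 genes were higher with LPS (H2-Ab1, H2-Oa and Ciita) and H2-DMa was lower, where 42.6% of all genes were called, 20.8% as higher and 21.8% as lower. Without IL-4 at 8 h replicate 4 the calls of H2-DMa (adjusted p = 0.0647) and Ciita (0.0902) were lost, which left 2, and the Ciita call was also lost without LPS at 8 h replicate 2 (0.0770). At 24 h 8 genes were higher with LPS (36.2% called, 18.1% higher), with differences of 0.59 ± 0.20 for H2-DMa (adjusted p = 0.0144), 0.60 ± 0.17 for H2-Eb1 (adjusted p = 0.00578) and 1.51 ± 0.20 for H2-Ab1 (adjusted p = 3.78e-08). The H2-DMa call at 24 h was lost without IL-4 replicate 2 (adjusted p = 0.0598) or 3 (0.0648) or LPS replicate 1 (0.0569) and in a fit of the 2 groups alone (0.0605), as was that of H2-Eb1 (0.0518). At 72 h all 9 genes were higher with LPS (39.1% called, 18.7% higher and 20.4% lower) and all LPS libraries lay above all IL-4 libraries, as they did for 19.0% of all genes tested. The difference reached 3.35 ± 0.24 for H2-Ab1 (adjusted p = 7.73e-15) and 3.30 ± 0.21 for H2-Eb1 (adjusted p = 4.04e-16), and among comparisons of stimuli at the same time this was the one in which H2-DMb2 was called (2.35 ± 0.57, adjusted p = 0.000994; 3.10 without IL-4 at 72 h replicate 2). H2-Oa was tested only because it was high with LPS or extract. Without it, the counts higher with LPS were 2, 7 and 8 of 8 genes at 8, 24 and 72 h, and the libraries at 72 h were apart for all 8.

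The H2-A chains did not keep a fixed proportion across stimuli. The ratio of H2-Ab1 to H2-Aa counts within a library, in which library depth cancels and gene length is constant, was 0.790 ± 0.0611 in control at 8 h (SD), 0.728 ± 0.0823 at 24 h and 0.720 ± 0.0974 at 72 h. With LPS it was 1.08 ± 0.0853, 1.27 ± 0.235 and 1.22 ± 0.216, and with cell extract 1.22 ± 0.0648, 1.12 ± 0.0888 and 1.06 ± 0.0638. No LPS or extract library overlapped the control libraries of its time, the lowest of them (0.950, LPS at 72 h replicate 1) being above the highest control (0.867). With IL-4 the ratio was 0.905 ± 0.128 at 8 h, 0.696 ± 0.0811 at 24 h and 1.07 ± 0.129 at 72 h, overlapping control at 8 and 24 h and above it at 72 h. The ratio of H2-Eb1 to H2-Aa had group means between 0.379 and 0.469, with libraries from 0.337 (LPS at 8 h) to 0.619 (LPS at 72 h). The ratio of H2-DMb1 to H2-DMa was 1.85 ± 0.372 in control at 8 h, 3.29 ± 0.768 with LPS and 3.84 ± 0.332 with cell extract at that time, and at 24 h its group means lay between 1.51 and 2.02. At 72 h they were 2.41 in control, 2.25 with IL-4, 1.91 with LPS and 1.74 with cell extract. These ratios were chosen after the values were seen and are given without a test.

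**Figure D3:**
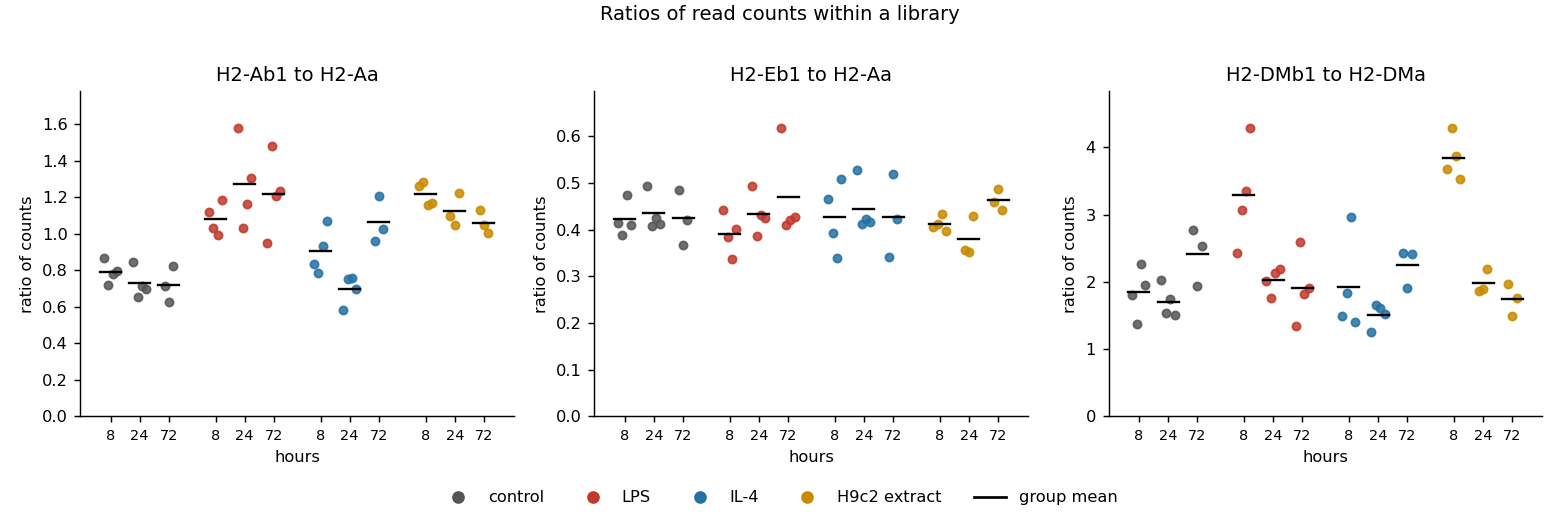
Ratio of read counts of 2 genes within each library (vertical axis, from 0) against hours of culture (horizontal axis) by stimulus; points are libraries and bars are group means. H2-Ab1 to H2-Aa lay between 0.627 and 0.867 in control and between 0.950 and 1.58 with LPS or cell extract, while H2-Eb1 to H2-Aa lay between 0.337 and 0.619 over all libraries.

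Across the 12 group means, H2-Aa and H2-Eb1 had a Pearson correlation of 0.995 in log2(CPM + 1), H2-Aa and H2-Ab1 of 0.956, and H2-Ab1 and Cd74 of 0.938. Ciita correlated at 0.904 with H2-DMb1, at 0.880 with H2-Ab1 and at 0.596 with H2-DMb2. These are descriptions over 12 points that share controls, libraries and scaling. With LPS at 72 h the 3 libraries with 15.2 to 17.4 CPM of Ciita had 1105 to 1181 CPM of H2-Ab1. Replicate 1 had 46.3 CPM of Ciita with 675 CPM. With LPS at 24 h libraries with 28.0 to 51.5 CPM of Ciita had 526 to 806 CPM, a range that holds replicate 1 of the 72 h group. With IL-4 at 24 h, 10.7 to 14.1 CPM of Ciita went with 207 to 233 CPM of H2-Ab1, and with LPS at 8 h 11.0 to 21.1 CPM went with 386 to 536 CPM.

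**Figure D4:**
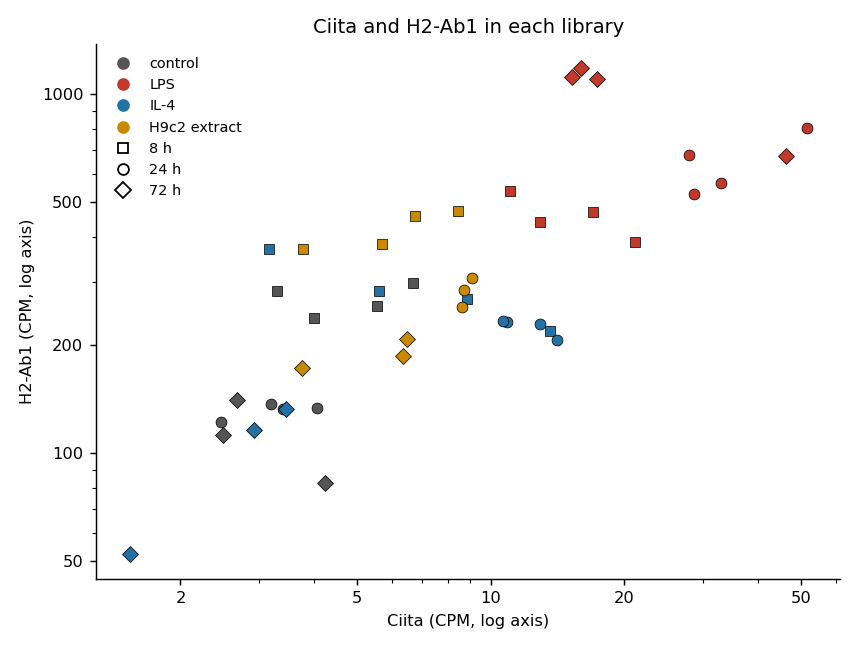
Ciita (horizontal axis, CPM, log scale) against H2-Ab1 (vertical axis, CPM, log scale) in each of the 44 libraries, coloured by stimulus with symbols for time. LPS libraries at 72 h have 675 to 1181 CPM of H2-Ab1 at 15.2 to 46.3 CPM of Ciita, and IL-4 libraries at 24 h have 207 to 233 CPM at 10.7 to 14.1 CPM.

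The 9 members were left out of a ranking by likeness. Among the 9515 other genes whose group means averaged 5 CPM or more, those most like H2-Ab1 across the 12 group means were B2m, the class I light chain (Pearson 0.912), Gtf2e2 (0.912), Adora2b (0.901), the class I chain H2-K1 (0.900) and the receptor chain Il2rg (0.893). Of the same genes, those most like Ciita were B2m (0.934), Tmco4 (0.926), Idnk (0.918), the class I chain H2-T23 (0.912) and Scimp (0.902).

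Other genes of the pathway were taken from lists. Their counts stand beside the shares of all genes called against control, which were 45.4%, 37.9% and 31.5% with LPS, 8.33%, 9.50% and 23.7% with IL-4 and 30.2%, 22.1% and 26.3% with cell extract at 8, 24 and 72 h. Besides H2-Ob, the tested list of other class II chains held the beta chain gene H2-Eb2, which stood at 1.29 CPM with cell extract and 0.438 CPM in control at 8 h and was at most 0.790 CPM in the mean of any other group. Of the 7 tested genes for factors that bind the X and Y boxes, Rfx5, the DNA-binding RFX subunit, was higher with LPS at each time. Its level was 8.67 against 2.08 CPM at 8 h (log2 difference 2.02 ± 0.26, adjusted p = 1.58e-08), 14.7 against 2.80 CPM at 24 h (2.40 ± 0.25, adjusted p = 2.31e-10) and 10.4 against 3.59 CPM at 72 h (1.53 ± 0.31, adjusted p = 0.000144). It was also higher with cell extract, by 1.15 ± 0.26 at 8 h (adjusted p = 0.000566), 1.12 ± 0.27 at 24 h (adjusted p = 0.00144) and 0.89 ± 0.33 at 72 h (adjusted p = 0.0405), and was not called with IL-4. In all, LPS gave 2 higher and 1 lower of the 7 at 8 h (Rfx5 and Nfyb higher, Rfxap lower by 0.72 ± 0.22, adjusted p = 0.00607) and 1 higher at 24 and at 72 h. Cell extract gave 2, 1 and 2 higher, with Nfyb, an NF-Y subunit, beside Rfx5 at 8 and 72 h, and IL-4 gave 1 higher at 72 h, the NF-Y subunit Nfyc (0.58 ± 0.16, adjusted p = 0.00886).

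The list of interferon and IL-4 signalling genes upstream of Ciita had 12 tested genes, and Irf8 is not analysed here. With LPS 9 were higher and 1 lower at 8 h, 7 and 1 at 24 h, and 7 and 2 at 72 h. The transcription factor Irf1 stood at 1284 against 56.2 CPM at 8 h (4.51 ± 0.23, adjusted p = 2.29e-19) and the receptor kinase Jak2 at 788 against 61.4 CPM (3.68 ± 0.20, adjusted p = 8.30e-19). Transcripts of Ifng itself, named after its values were seen, were at 43.0 CPM with LPS at 8 h, 21.2 at 24 h and 7.89 at 72 h, against 0.863, 0.274 and 0.237 CPM in control. T and NK cells are known sources of Ifng, and the 8 T and NK cell markers summed to 5.98 to 9.67 CPM with LPS at 8 h and 3.52 to 4.74 CPM in control. Their part in the Ifng level was not tested. With cell extract 6 of the 12 were higher at each time, with 2, 1 and 2 lower. Irf1 was higher by 3.04 ± 0.22 at 8 h (adjusted p = 1.76e-14). IL-4 gave 4, 3 and 2 higher, with 1 lower at 72 h (Spi1). Socs1, the inhibitor of cytokine signalling, was higher with IL-4 by 3.76 ± 0.36 at 8 h (adjusted p = 2.93e-10) and Jak2 by 0.88 ± 0.18 (adjusted p = 0.000907), while Irf1 (0.55 ± 0.21, adjusted p = 0.105), named here after its value was seen, did not pass the test. Ifngr1, a chain of the interferon gamma receptor, was higher with IL-4 at 8 h (0.71 ± 0.11, adjusted p = 1.88e-05).

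Of 8 genes of endosomal proteolysis (6 cathepsins, legumain, gene Lgmn, and the thiol reductase Ifi30), LPS gave 1 higher and 3 lower at 8 h, a share near that of all genes, 2 and 4 at 24 h, and 3 and 4 at 72 h. With LPS at 24 h the aspartic protease Ctsd fell by 1.69 ± 0.14 (adjusted p = 4.20e-13) and Lgmn by 1.66 ± 0.15 (adjusted p = 2.05e-12), while Ctsh was higher by 1.37 ± 0.15 (adjusted p = 6.02e-10). At 72 h Lgmn (-1.75 ± 0.16, adjusted p = 4.53e-12), Ctsl (-1.27 ± 0.13, adjusted p = 3.06e-10) and Ctsb (-0.75 ± 0.12, adjusted p = 2.30e-06) were lower. Ctss, the protease known for the last step of invariant chain removal and named after its values were seen, differed by 0.04 ± 0.10 at 8 h (adjusted p = 0.761) and was higher at 72 h by 0.49 ± 0.11 (adjusted p = 0.00064). Cell extract gave 7 of 8 lower at 8 h, 5 lower at 24 h, and 2 lower with 1 higher at 72 h, with Lgmn lower by 1.32 ± 0.15 at 8 h (adjusted p = 1.22e-09) and Ctsl by 1.14 ± 0.14 at 24 h (adjusted p = 1.40e-08). IL-4 gave 2 higher at 8 h, 2 higher and 2 lower at 24 h, and 1 each at 72 h. Ifi30 was higher with IL-4 at 24 h by 0.99 ± 0.14 (adjusted p = 1.86e-06) and Ctsl at 72 h by 1.08 ± 0.14 (adjusted p = 3.50e-07), while Ctsh was lower at 72 h by 0.78 ± 0.17 (adjusted p = 0.000853).

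March1, the ubiquitin ligase that sends class II molecules to degradation, was higher with LPS at 24 h (146 against 62.8 CPM, 1.22 ± 0.17, adjusted p = 8.93e-08) and 72 h (238 against 67.4 CPM, 1.80 ± 0.19, adjusted p = 4.34e-10). With cell extract it was higher at each time (1.14 ± 0.17, 1.58 ± 0.18 and 1.00 ± 0.20, adjusted p = 6.53e-07, 2.11e-09 and 0.000145), and with IL-4 it was lower at 72 h (-1.17 ± 0.20, adjusted p = 2.33e-05). Cd83, which opposes March1, was higher with LPS at 8 h (2.89 ± 0.15, adjusted p = 1.58e-19) and lower at 24 h (-0.57 ± 0.14, adjusted p = 0.00108) and 72 h (-0.67 ± 0.16, adjusted p = 0.000691). With IL-4 Cd83 was lower at each time (-0.66 ± 0.15, -0.52 ± 0.14 and -0.64 ± 0.16, adjusted p = 0.00165, 0.0128 and 0.00368). With cell extract it was higher at 8 h (0.92 ± 0.14, adjusted p = 1.21e-06) and overlapped control at 24 h without a call (-0.27 ± 0.15, adjusted p = 0.227). It was lower at 72 h (-0.93 ± 0.17, adjusted p = 4.09e-05). March8, a ligase related to March1, was lower with LPS at 8 h (-0.44 ± 0.19, adjusted p = 0.0497) and higher at 72 h with IL-4 (0.82 ± 0.22, adjusted p = 0.00478) and with cell extract (0.60 ± 0.22, adjusted p = 0.0380). The costimulatory genes Cd40, Cd80 and Cd86 were all higher with LPS at each time, Cd86 by 3.98 ± 0.17 at 8 h (adjusted p = 1.72e-21). Cell extract gave Cd40 at 8 h (2.87 ± 0.49, adjusted p = 1.02e-05) and Cd40 with Cd86 later, and with IL-4 the call among the 3 was Cd86, lower at 8 h (-0.82 ± 0.18, adjusted p = 0.00201).

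Markers of other cells that carry class II were low and moved with some groups. The 8 dendritic cell markers summed to 25.0 to 45.7 CPM with LPS at 8 h and 7.67 to 15.8 CPM in control, and to 15.6 to 26.0 and 6.57 to 16.0 CPM at 72 h. Of the 6 tested, Ccr7 and Zbtb46 were higher with LPS at 8 h and Clec9a lower, Ccr7 was higher and Clec9a lower at 24 h, and both were higher at 72 h. Ccr7, which activated macrophages can also express, made 13.9 CPM of the sum at 8 h. With IL-4 at 24 h the dendritic sum was 5.28 to 7.47 CPM, against 5.48 to 11.4 CPM in control. At 72 h the mesothelial and fibroblast sum was 151 to 281 CPM with LPS, 72.6 to 150.4 CPM with IL-4 and 166 to 192 CPM with cell extract, against 452 to 1044 CPM in control, and 7, 5 and 7 of the 7 tested markers were lower. The part of these cells in the class II differences was not tested.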

How the data were processed

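Single-end reads of 50 bp from polyadenylated RNA were counted by the authors per gene, and the deposited table holds whole-number counts. Per the submitters' processing notes, the tools were cutadapt, Bowtie2, TopHat, TopHat2 2.1.1, HTSeq, DESeq and edgeR, and the build was mm10. Neither annotation release nor strand setting is given in the sources used here. The 5 summary entries were left out, and ambiguous reads made up 5.39% of gene and ambiguous counts (3.16% to 17.3% per library). Depth was 0.908 to 26.6 M gene counts per library.

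In R 4.3.3, edgeR 4.0.16 (with limma 3.58.1) kept 14537 genes by filterByExpr (minimum count 10), scaled libraries by TMM and fitted 1 quasi-likelihood model with 12 group terms to all 44 libraries (32 residual degrees of freedom, biological coefficient of variation 0.219). Differences are log2 (prior count 0.125) with their standard error. Calls needed an adjusted p (Benjamini-Hochberg, over all 14537 genes, two-sided) under 0.05, and every adjusted p is edgeR's unless another tool is named. Of 22 comparisons, 3 were interactions of stimulus and time. CPM are TMM-scaled counts per M. H2-Oa ratios have exact 95% intervals of counts. The code was tested on simulated data.

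All 9 members are named, and pathway genes where called with the smallest p (up to 3 per list and comparison with control; lists were not reported for other comparisons), except 1 pathway gene that is not reported here. Likeness was the Pearson correlation over 12 group means of log2(CPM + 1). The members and lists were chosen with earlier results of these data known. Alternatives were DESeq2 1.42.0, RLE size factors, no filter, a fit of the compared groups alone, a replicate block, each library left out, and CPM on raw totals; leaving out 7 libraries or control replicate 1, and transcript lengths, were chosen after seeing the data, as were the count ratios. In 4 of 19 comparisons at least 3 pairs of same-numbered libraries were present and all deviated together (r over 0.1). These were LPS with control at 8 and 24 h, cell extract with control at 8 h, and cell extract at 72 with 8 h. Cell extract with control at 72 h had only 2 pairs, both over 0.1 (0.249 and 0.284). Over all comparisons r ran from -0.148 to 0.625, and the labels tie the numbers to nothing shared.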

Additional observations from a re-analysis of the deposited data

Results flagged for a closer look

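Of 72 gene and group combinations with 4 libraries, 11 had 1 library far from the other 3, where chance flags about 1 in 20 groups, and 7 of the 11 were a replicate 1. With IL-4 at 24 h these were replicate 1, the shallowest library, for H2-Aa (399 CPM), H2-Eb1 (210.2 CPM) and H2-DMa (79.5 CPM), replicate 4 for H2-Ab1 (207 CPM) and replicate 2 for H2-Oa (0.112 CPM). With LPS they were replicate 1 at 72 h for H2-Ab1 (675 CPM, the lowest) and Ciita (46.3 CPM, the highest), and replicate 1 at 24 h for Cd74 (897 CPM). With cell extract at 8 h they were replicate 2 for H2-DMb2 (3.27 CPM) and replicate 3 for Cd74 (411 CPM), and in control at 24 h replicate 1 for H2-DMa (15.8 CPM). The rate of 1 in 20 supposes independent groups of normal values. The genes here share libraries, and the other H2-Oa libraries with IL-4 at 24 h were at 0.

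The difference from control changed between 8 and 72 h in 10 tests of the change itself. These were 6 of 9 genes with LPS, 2 of 9 with IL-4 and 2 of 9 with cell extract. Of all genes tested, 30.0%, 16.1% and 21.9% were called, so the count with cell extract was near the share of all genes. With LPS it grew for H2-Aa (2.12 on the log2 scale), H2-Ab1 (2.43), H2-Eb1 (2.38), H2-DMa (1.91), H2-DMb1 (0.71) and Cd74 (2.66). With IL-4 it turned from above to below control for H2-DMa (-1.45) and H2-DMb1 (-1.42). With cell extract it shrank for H2-DMb1 (-0.90) and grew for Cd74 (0.89). That Cd74 call was lost in 8 of 14 fits with 1 library left out, with DESeq2 (adjusted p = 0.0672) and with RLE size factors (0.0875). The H2-DMb1 call with LPS was lost in 2 of 15 such fits.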

How the results depend on the processing

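Of 198 differences of a member in a comparison, 118 were called, and no called one reversed under any alternative run. The share of all genes called ran from 8.33% to 45.4% over these comparisons. The 118 include calls of H2-Oa, which are a description only. The counts of members called for LPS against control (4, 8 and 8), IL-4 against control at 24 h (6) and cell extract against control at 24 h (5) were the same with every library left out in turn. For the change of the cell extract difference from 8 to 72 h the count of 2 became 1 with DESeq2, 1 with RLE size factors and 1 without control replicate 1 at 8 and 24 h, and ranged from 1 to 2 with each library left out. For IL-4 against control at 72 h the count of 4 became 2 in a fit of the groups alone and 2 without the 7 libraries rich in Rn18s-rs5, and ranged from 2 to 4 with each library left out. For IL-4 against control at 8 h the count of 2 became 0 in a fit of the groups alone and 0 without control replicate 1 (2 and 3 members at an unadjusted p under 0.05 in edgeR; DESeq2 on all libraries called 2), 1 with no filter and 1 without the 7 libraries, and ranged from 0 to 2. The range was 1 to 3 for cell extract against control at 72 h (1 without control at 72 h replicate 1) and 2 to 4 for LPS against IL-4 at 8 h. The causes were not tested.

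The replicate block left 22 counts within 1.5 times and changed 1 call, H2-DMb2 in cell extract against LPS at 72 h (-1.44, adjusted p = 0.0412, against -1.41 and 0.0691). With CPM on raw totals, 15 mean levels of a gene in a group moved by at least their SD, and 93 did not. Shallow libraries, from 0.908 M counts, limit H2-Oa (530 counts in all) and H2-DMb2 (625).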
